A study of Danio rerio with 12 samples.

Results

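The aryl hydrocarbon receptor genes, their repressors and the CYP1 monooxygenase genes of zebrafish were followed by name through the deposited expression table. All 10 genes sought were found once each among the 44667 rows: 5 CYP1 genes (cyp1a, cyp1b1, cyp1c1, cyp1c2 and cyp1d1), 3 receptor genes (ahr2, ahr1a and ahr1b) and 2 repressor genes (ahrra and ahrrb). The RNA came from wild-type larvae, 4 days post fertilisation, in 4 groups of 3 libraries. They were OBS30 (30 mg/L OBS, replicates 1, 3 and 4), OBS20 (20 mg/L OBS, replicates 1, 2 and 3), PFOS20 (20 mg/L PFOS, replicates 2, 3 and 4) and untreated control larvae (replicates 2, 3 and 4). PFOS is a sulfonate with a perfluorinated alkyl chain, and OBS, which the series treats as its replacement, has a perfluorinated alkenyl chain linked through oxygen to a benzene ring that carries the sulfonate. The labels do not give the start or length of exposure, nor whether replicates were separate clutches or pools of larvae, so p-values measure only the spread between these samples.

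The aryl hydrocarbon receptor is a ligand-activated transcription factor of the basic helix-loop-helix PAS family. It waits in the cytoplasm with HSP90 and its helpers, enters the nucleus when a planar aromatic ligand binds, pairs with ARNT and switches on its targets, of which the CYP1 genes are the best known. CYP1 enzymes oxidise aromatic pollutants as well as steroids and retinoids, and CYP1A is the usual marker of receptor activation in fish. AHRR proteins resemble the receptor, are themselves induced by it, and compete with it for ARNT and for DNA. In zebrafish ahr2 encodes the receptor through which dioxin acts on the embryo, whereas the product of ahr1a binds dioxin poorly.

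Levels are given in TPM, a length-scaled share of transcripts, so that they can be compared between genes, and changes as log2(TPM + 1) differences between group means, each ± its standard error in limma. Comparison between genes rests on the annotated lengths, from 1329 bases in ahrra to 7511 in ahr2. Whether each row covers its whole transcript was not tested. Genes reaching 1 TPM in 3 or more libraries were tested, and a gene was called at an adjusted p below 0.05 over all genes tested. Of the 10 genes 8 passed this filter, 7 of them with at least 1 TPM in all 12 libraries. The exception, cyp1b1, reached 1 TPM in 8 libraries. The read depth behind the values is unknown, and precision comes from the spread between libraries. OBS20 replicate 3 stood apart, with a median of 1.27 TPM over all rows, against 1.57 to 2.33 TPM in the other 11 libraries, and the differences of the 8 genes tested that involve OBS20 are given with and without it. All 55 markers found for liver, vessel, gut, neuron, skeletal muscle, heart and skin cells were above 0 TPM in every group. In bulk RNA of this kind, fewer cells of a type and less RNA per cell cannot be told apart.

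Among the 10 genes, cyp1a had the highest transcript level in every group. In control larvae it averaged 44.3 TPM, above 95.1% of all rows of the table, and ahr2 followed at 14.2 TPM. Next came ahr1b, cyp1c1, cyp1d1 and ahrra at 8.42, 7.91, 7.76 and 7.16 TPM, and the libraries of each neighbouring pair in that order overlapped. Below these, cyp1c2 at 1.67 TPM, cyp1b1 at 0.900, ahrrb at 0.500 and ahr1a at 0.207 TPM were each apart from the next. In the exposed groups cyp1c1 moved to second place, at 23.1 TPM in OBS30, 19.8 in OBS20 and 19.0 in PFOS20. There it lay apart from ahr2 (19.6 TPM) in OBS30 but overlapped with ahr2 in OBS20 and in PFOS20. The rank of cyp1c2 among the 10 genes was 6 in OBS30 at 7.0 TPM, 7 in OBS20 at 4.71 TPM and 4 in PFOS20 at 8.13 TPM, against 7 in control.

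**Figure D1:**
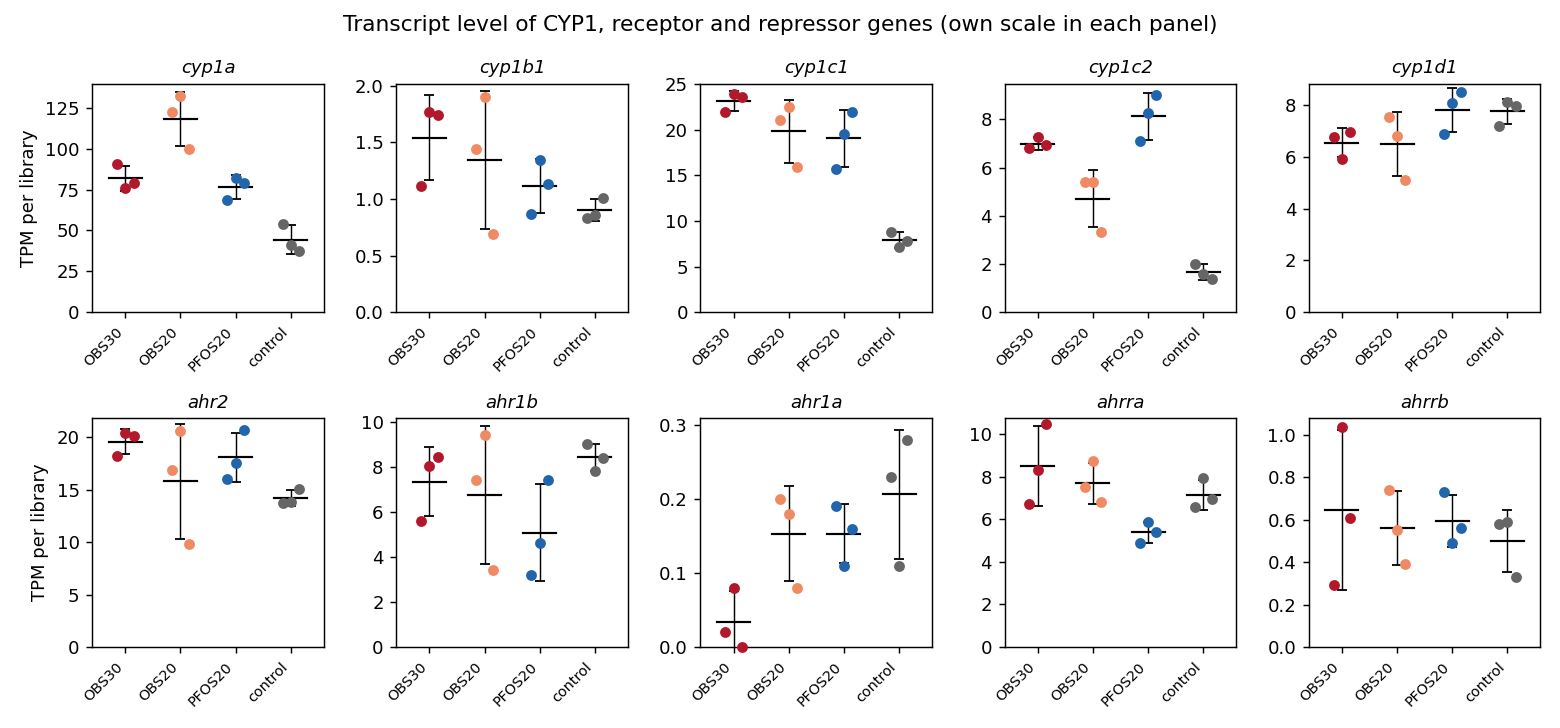
Each panel plots the TPM of a gene in the 3 libraries of OBS30, OBS20, PFOS20 and control (points), with the mean as a line and the SD as a bar; every panel has its own vertical scale starting at 0. The exposed libraries of cyp1a, cyp1c1 and cyp1c2 all lie above the control libraries, cyp1a is highest in OBS20 at 118 TPM on average, and cyp1c2 is highest in PFOS20 at 8.13 TPM.

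The first question was whether either compound changed the CYP1 genes against untreated larvae. cyp1a, cyp1c1 and cyp1c2 rose in all 3 exposed groups, while cyp1b1 and cyp1d1 were not called in any of them. The marker gene cyp1a (ENSDARG00000098315) stood at 90.7, 76.1 and 79.1 TPM in OBS30 larvae, at 122, 133 and 100.04 TPM in OBS20 larvae and at 68.5, 82.2 and 79.0 TPM in PFOS20 larvae, against 54.2, 41.3 and 37.4 TPM in control larvae. Every exposed library was above every control library. The rise was 1.4 ± 0.15 in OBS20 (95% interval 1.07 to 1.74, adjusted p = 0.0011), a ratio of mean TPM of 2.67. It was 0.89 ± 0.15 in OBS30 (adjusted p = 0.0043) and 0.79 ± 0.15 in PFOS20 (adjusted p = 0.0054), with ratios of 1.85 and 1.73. Without OBS20 replicate 3 the rise in OBS20 was 1.52 ± 0.15 (adjusted p = 0.0019).

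The paired genes cyp1c1 and cyp1c2 belong to a CYP1 subfamily that fish have and mammals lack. cyp1c1 (ENSDARG00000101195) stood at 21.9, 23.9 and 23.6 TPM in OBS30 larvae, 21.1, 22.4 and 15.9 TPM in OBS20 larvae and 15.7, 19.5 and 21.9 TPM in PFOS20 larvae, against 8.78, 7.12 and 7.84 TPM in control larvae. All exposed libraries were again above all controls, and the lowest exposed library, at 15.7 TPM, was well clear of the highest control library. Its rise was 1.44 ± 0.16 in OBS30 (adjusted p = 2.5e-04), 1.21 ± 0.16 in OBS20 (adjusted p = 0.0031) and 1.16 ± 0.16 in PFOS20 (adjusted p = 8.8e-04), all by limma. The ratios of mean TPM were 2.92, 2.50 and 2.41 in that order. Without OBS20 replicate 3 the OBS20 rise was 1.36 ± 0.14, with adjusted p = 0.0022. When only the 6 libraries of OBS20 and control were fitted, the change was again 1.21, with adjusted p = 0.059.

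cyp1c2 (ENSDARG00000101789) had the lowest level of these 3 genes and the widest relative change. It stood at 6.80, 7.28 and 6.92 TPM in OBS30 larvae, 5.41, 5.39 and 3.33 TPM in OBS20 larvae and 7.10, 8.25 and 9.03 TPM in PFOS20 larvae, against 2.01, 1.60 and 1.39 TPM in control larvae. No exposed library overlapped with a control library. The rise was 1.59 ± 0.18 in OBS30 (adjusted p = 2.9e-04), 1.08 ± 0.18 in OBS20 (adjusted p = 0.012) and 1.78 ± 0.18 in PFOS20 (adjusted p = 1.7e-04). As ratios of mean TPM these were 4.20, 2.83 and 4.88, larger than the log2(TPM + 1) scale shows because the control level is low. Over all genes tested, the rises of cyp1c2 were at percentiles 98.8, 98.8 and 99.3 of changes in OBS30, OBS20 and PFOS20. In the same order those of cyp1c1 were at 98.4, 99.1 and 97.5, and those of cyp1a at 94.9, 99.4 and 94.2. The OBS20 call of cyp1c2 was lost without OBS20 replicate 1 (adjusted p = 0.058), control replicate 3 (adjusted p = 0.054) or control replicate 4 (adjusted p = 0.057), and with only the 6 libraries compared (adjusted p = 0.17). It was also lost with the replicate number as a block (1.05 ± 0.22, adjusted p = 0.13). Without OBS20 replicate 3 it was 1.27 ± 0.14 with adjusted p = 0.0025.

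The remaining CYP1 genes were not called against control. cyp1b1, whose enzyme metabolises retinoids and steroids and is tied to eye development, stood at 1.11, 1.77 and 1.74 TPM in OBS30 larvae, 1.44, 1.90 and 0.690 TPM in OBS20 larvae and 0.870, 1.34 and 1.13 TPM in PFOS20 larvae, against 0.830, 0.860 and 1.01 TPM in control larvae. The OBS30 libraries were above the controls, whereas those of OBS20 and of PFOS20 overlapped with them. The differences were 0.41 ± 0.22 (95% interval -0.08 to 0.90), 0.27 ± 0.22 (-0.22 to 0.76) and 0.15 ± 0.22 (-0.34 to 0.64) for OBS30, OBS20 and PFOS20. None was called, and a level near the filter limits what the test can show. The OBS20 difference of cyp1b1 was 0.49 ± 0.19 without OBS20 replicate 3 (adjusted p = 0.29).

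cyp1d1, which has been described in zebrafish as a CYP1 gene that receptor agonists do not induce, ranged from 5.91 to 6.95 TPM in OBS30, 5.12 to 7.53 in OBS20 and 6.87 to 8.49 in PFOS20, against 7.21 to 8.10 TPM in control. All 12 libraries thus fell in a narrow band, with the OBS30 libraries just below the controls. Its differences were -0.22 ± 0.15 in OBS30 (95% interval -0.54 to 0.11), -0.24 ± 0.15 in OBS20 (-0.56 to 0.09) and 0.01 ± 0.15 in PFOS20 (-0.32 to 0.33). The OBS20 difference was -0.10 ± 0.12 without OBS20 replicate 3. The upper ends of these intervals lie below the estimated rise of cyp1a, cyp1c1 and cyp1c2 in the same exposure.

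Of the 8 genes tested, 3 rose and 0 fell in OBS30, where 4.73% of all genes tested were called higher and 3.70% lower. In OBS20 3 rose and 0 fell, where 0.681% of all genes were called higher and 0.805% lower. In PFOS20 3 rose and 0 fell, against 6.35% higher and 11.9% lower over all genes. The same 3 genes, cyp1a, cyp1c1 and cyp1c2, account for each count. These contrasts share their control libraries, so the counts are not separate support. Of the 8 genes, these 3 alone had an unadjusted limma p under 0.05 in each contrast. Over all 30674 genes tested that p was under 0.05 for 6431 in OBS30, 3218 in OBS20 and 10019 in PFOS20. The median change of all genes tested was 0.02 in OBS30, -0.08 in OBS20 and -0.13 in PFOS20. Under median-of-ratios scaling these medians were 0.00, -0.01 and 0.00, and the PFOS20 rises of cyp1a, cyp1c1 and cyp1c2 were 0.95, 1.32 and 1.90.

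**Figure D2:**
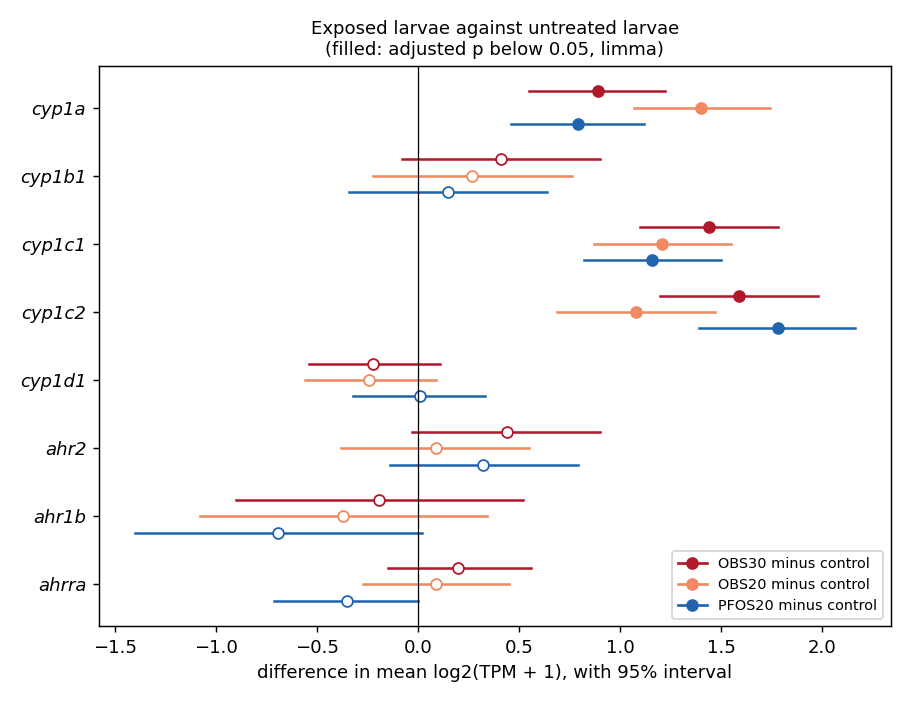
Differences from control in mean log2(TPM + 1) are plotted for the 8 genes tested, in OBS30 (top), OBS20 (middle) and PFOS20 (bottom) of each gene, with 95% intervals; filled points were called at an adjusted p below 0.05. The 9 filled points belong to cyp1a, cyp1c1 and cyp1c2, and the largest is cyp1c2 in PFOS20 at 1.78.

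The receptor genes were not called in any exposure under the main fit, of log2(TPM + 1) over all libraries without rescaling. ahr2 (ENSDARG00000021833), the main dioxin receptor of the zebrafish embryo, stood at 18.2, 20.4 and 20.1 TPM in OBS30 larvae, 16.9, 20.6 and 9.86 TPM in OBS20 larvae and 16.0, 17.6 and 20.7 TPM in PFOS20 larvae, against 13.7, 13.8 and 15.1 TPM in control larvae. All libraries of OBS30 and of PFOS20 were above the controls, and in OBS20 replicates 1 and 2 were above them and replicate 3 below. The differences were 0.44 ± 0.21 in OBS30 (adjusted p = 0.27), 0.09 ± 0.21 in OBS20 (adjusted p = 0.93) and 0.32 ± 0.21 in PFOS20 (adjusted p = 0.32). The spread of OBS20 replicate 3 enters all 3 errors. Without that library the OBS30 difference was called (0.44 ± 0.11, adjusted p = 0.034) and the OBS20 and PFOS20 differences were 0.37 (adjusted p = 0.22) and 0.32 (adjusted p = 0.062). Under median-of-ratios scaling ahr2 was called higher in OBS30 (0.41, adjusted p = 0.045) and in PFOS20 (0.48, adjusted p = 0.011), under quantile normalisation in PFOS20 (0.45, adjusted p = 0.023), and with only the 6 libraries compared in OBS30 (0.44, adjusted p = 0.028).

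ahr1b, a further dioxin-binding receptor gene, had means on the opposite side of control. It stood at 5.61, 8.02 and 8.42 TPM in OBS30 larvae, 7.41, 9.43 and 3.42 TPM in OBS20 larvae and 3.20, 4.61 and 7.43 TPM in PFOS20 larvae, against 9.02, 7.83 and 8.41 TPM in control larvae. The 3 PFOS20 libraries were below the controls, and the OBS libraries overlapped with them. The differences were -0.19 ± 0.32 in OBS30, -0.37 ± 0.32 in OBS20 and -0.69 ± 0.32 in PFOS20 (95% interval -1.40 to 0.02, adjusted p = 0.16), and none was called. OBS30 replicate 1, OBS20 replicate 3 and PFOS20 replicate 2 had the lowest ahr1b of their groups. They also had the lowest median TPM over all rows in their groups, at 1.90, 1.27 and 1.57 TPM. Without PFOS20 replicate 2 the PFOS20 difference of ahr1b was -0.45 (adjusted p = 0.44), and without OBS20 replicate 3 the OBS20 difference was -0.01 ± 0.27 (adjusted p = 1). With all libraries the PFOS20 difference of ahr1b was -0.55 after median-of-ratios scaling and -0.53 after quantile normalisation, and was not called. ahr1a was close to the limit of the table, at 0.0200, 0.0800 and 0 TPM in OBS30, 0.200, 0.180 and 0.0800 TPM in OBS20 and 0.190, 0.110 and 0.160 TPM in PFOS20, against 0.230, 0.110 and 0.280 TPM in control. It did not pass the filter.

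The repressor gene ahrra (ENSDARG00000099702) was not called, although it shared no library values between PFOS20 and control. It stood at 6.71, 8.31 and 10.5 TPM in OBS30 larvae, 7.54, 8.73 and 6.80 TPM in OBS20 larvae and 4.89, 5.86 and 5.4 TPM in PFOS20 larvae, against 6.56, 7.95 and 6.97 TPM in control larvae. PFOS20 was the group in which all libraries were lower than the controls, while both OBS groups overlapped with them. The differences were 0.20 ± 0.16 in OBS30 (95% interval -0.15 to 0.56), 0.09 ± 0.16 in OBS20 (-0.27 to 0.45) and -0.35 ± 0.16 in PFOS20 (-0.71 to 0.00, adjusted p = 0.16). The OBS20 difference of ahrra was 0.16 ± 0.17 without OBS20 replicate 3. Its PFOS20 difference was smaller after rescaling in limma fits. It was -0.21 with median-of-ratios scaling (adjusted p = 0.29) and -0.19 with quantile normalisation (adjusted p = 0.35). ahrrb, its paralogue, ranged from 0.290 to 1.04 TPM in OBS30, 0.390 to 0.740 in OBS20 and 0.490 to 0.730 in PFOS20, against 0.330 to 0.590 in control, and did not pass the filter. A locus assembled from the reads, 492 bases long, carries the same KEGG orthology entry and was annotated by the authors as ahrrb, at 0 to 2.86 TPM over the 12 libraries, so that the reads of ahrrb may be split between 2 rows.

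Summed over the 5 genes, CYP1 transcripts came to 120.1 ± 6.39 TPM in OBS30, 151 ± 22.8 TPM in OBS20 and 113 ± 11.8 TPM in PFOS20, against 62.6 ± 9.22 TPM in control (SD, n = 3 each). cyp1a made up 68.1% ± 2.75 of that sum in OBS30, 78.6% ± 1.24 in OBS20 and 68.0% ± 1.70 in PFOS20, against 70.5% ± 3.49 in control. The OBS20 larvae thus had the largest cyp1a share, in all 3 libraries above every other library of the study. cyp1c1 and cyp1c2 together took 25.1% ± 2.35 in OBS30, 16.2% ± 0.729 in OBS20 and 24.1% ± 1.58 in PFOS20, against 15.4% ± 1.05 in control. The share of cyp1d1 was 5.45% ± 0.383, 4.30% ± 0.410 and 6.93% ± 0.171 in OBS30, OBS20 and PFOS20, against 12.6% ± 2.41 in control.

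Ratios within a library do not depend on how libraries are scaled to each other. The ratio of cyp1c2 to cyp1c1 was 0.311, 0.305 and 0.293 in OBS30, 0.257, 0.240 and 0.209 in OBS20 and 0.453, 0.422 and 0.412 in PFOS20, against 0.229, 0.225 and 0.177 in control. PFOS20 had the highest ratios of the study and OBS20 overlapped with control, so the pair did not keep the same proportion in the 4 groups. The ratio of cyp1a to cyp1c2 was 11.7 ± 1.47 in OBS30, 25.7 ± 3.85 in OBS20 and 9.45 ± 0.631 in PFOS20, against 26.6 ± 0.643 in control (SD, n = 3 each). For cyp1a over cyp1c1 it was 3.56 ± 0.510, 6.0 ± 0.251 and 4.06 ± 0.401 in OBS30, OBS20 and PFOS20, against 5.58 ± 0.725 in control. In OBS20 these proportions were near those of control at a higher level, whereas in OBS30 and PFOS20 the cyp1c genes had gained on cyp1a. The ratio of ahr2 to ahr1b was 3.25, 2.54 and 2.39 in OBS30, 2.28, 2.18 and 2.88 in OBS20 and 5.01, 3.82 and 2.78 in PFOS20, against 1.52, 1.76 and 1.80 in control. Here all 9 exposed libraries, OBS20 replicate 3 included, were above the controls. In each exposed group the highest ratio of ahr2 to ahr1b was in the library with the lowest median TPM over all rows. These were OBS30 replicate 1 (1.90 TPM), OBS20 replicate 3 (1.27 TPM) and PFOS20 replicate 2 (1.57 TPM). These ratios are given as descriptions and were not tested.

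**Figure D3:**
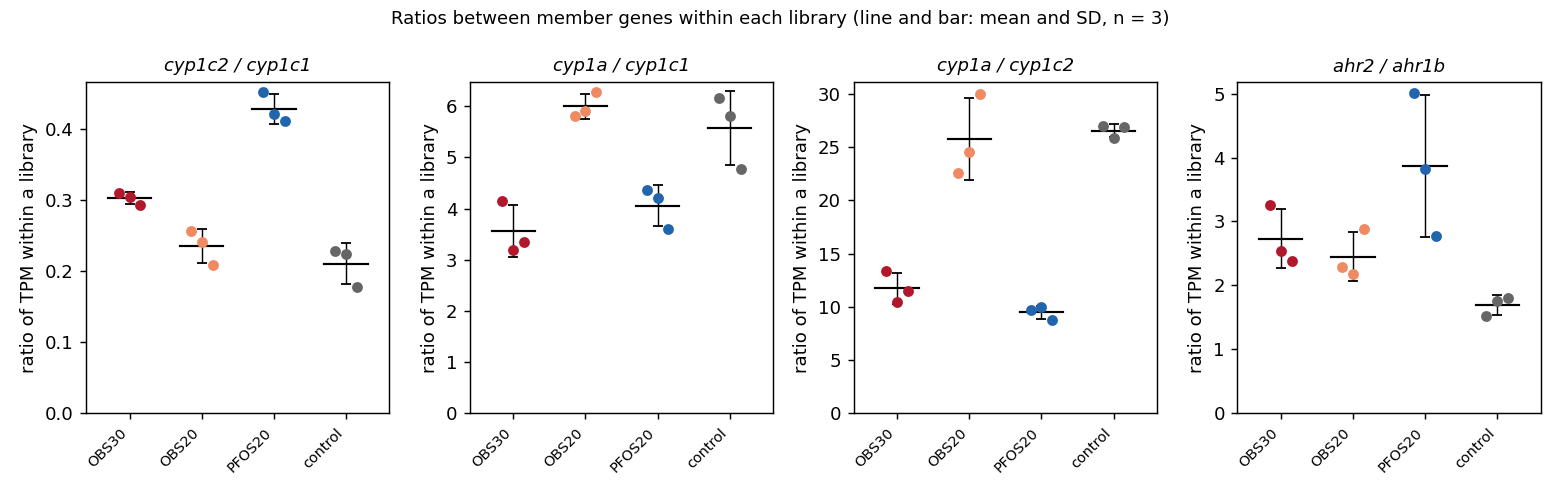
Ratios of TPM between pairs of genes are plotted for each library (points) in OBS30, OBS20, PFOS20 and control, with the mean as a line and the SD as a bar. The cyp1c2 to cyp1c1 ratio is highest in PFOS20 (0.412 to 0.453), the cyp1a ratios of OBS20 lie near those of control, and the ahr2 to ahr1b ratio of every exposed library exceeds the highest control value of 1.80.

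The next comparison set OBS against PFOS at the matched concentration of 20 mg/L. cyp1a was higher and cyp1c2 lower in OBS20 than in PFOS20, so that these related genes differed between the compounds in opposite directions. cyp1a averaged 118 ± 16.6 TPM in OBS20 and 76.6 ± 7.14 TPM in PFOS20 (SD, n = 3 each), and the lowest OBS20 library, at 100.04 TPM, was above the highest PFOS20 library, at 82.2 TPM. The difference was 0.62 ± 0.15 (95% interval 0.28 to 0.95, adjusted p = 0.027). cyp1c2 averaged 4.71 ± 1.2 TPM in OBS20 and 8.13 ± 0.971 TPM in PFOS20, with no overlap, a difference of -0.69 ± 0.18 (-1.08 to -0.31, adjusted p = 0.031). cyp1c1 averaged 19.8 ± 3.43 TPM in OBS20 and 19.0 ± 3.13 TPM in PFOS20, and its difference of 0.05 ± 0.16 had an interval of -0.29 to 0.39.

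Among the other genes tested between OBS20 and PFOS20 with all libraries, ahrra had the largest difference, 0.44 ± 0.16 (adjusted p = 0.12), with 7.69 ± 0.974 TPM in OBS20 and 5.38 ± 0.485 TPM in PFOS20 and no overlap. It was not called. The intervals of the others were -0.37 to 0.61 for cyp1b1, -0.57 to 0.08 for cyp1d1, -0.70 to 0.23 for ahr2 and -0.39 to 1.03 for ahr1b. In all 1 gene was called higher and 1 lower, where 5.85% of all genes were called higher and 3.92% lower. Both calls depended on the libraries fitted. The adjusted p of cyp1a was 0.084 with only the 6 libraries compared and 0.061 to 0.099 without PFOS20 replicate 2 or 3 or OBS20 replicate 1 or 2. That of cyp1c2 was 0.17 with only the 6 libraries and 0.050 to 0.11 without any PFOS20 library or OBS30 replicate 4. With the replicate number as a block neither was called (0.55 ± 0.17 for cyp1a and -0.73 ± 0.22 for cyp1c2, adjusted p = 0.11 for each). Without OBS20 replicate 3 both calls held, at 0.73 ± 0.15 for cyp1a (adjusted p = 0.01) and -0.51 ± 0.14 for cyp1c2 (adjusted p = 0.028). Among the genes not called, ahr1b then had the largest difference, 0.68 ± 0.27 (adjusted p = 0.098), and ahrra had 0.52 ± 0.17 (adjusted p = 0.056). cyp1b1 was then at 0.34, cyp1c1 at 0.19, cyp1d1 at -0.10, and ahr2 turned to 0.05.

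Between the OBS concentrations none of the 8 genes was called by limma, where 1.11% of all genes were called higher in OBS30 and 0.466% lower. The unadjusted p was under 0.05 for 2 of the 8 genes, with opposite signs, and for 4031 of all 30674 genes tested. cyp1a averaged 81.9 ± 7.72 TPM in OBS30 and 118 ± 16.6 TPM in OBS20 (SD, n = 3 each), and every OBS30 library was below every OBS20 library. Its difference was -0.52 ± 0.15 (95% interval -0.85 to -0.19, adjusted p = 0.14), and quantile normalisation gave -0.59 with adjusted p = 0.047. cyp1c2 averaged 7.0 ± 0.250 TPM in OBS30 and 4.71 ± 1.2 TPM in OBS20, again without overlap, a difference of 0.51 ± 0.18 (0.12 to 0.90, adjusted p = 0.23). The mean of cyp1a was thus not highest at the highest OBS concentration. For cyp1c1 the difference was 0.23 ± 0.16 (-0.12 to 0.57), and those of cyp1b1, cyp1d1, ahr2, ahr1b and ahrra were between 0.02 and 0.35. Without OBS20 replicate 3 the difference of cyp1a was -0.63 ± 0.15 (adjusted p = 0.094), that of cyp1c2 was 0.32 ± 0.14 (adjusted p = 0.35) and that of cyp1c1 was 0.08. ahr2 was then at 0.06 and ahrra at 0.04, while ahr1b, cyp1d1 and cyp1b1 turned to -0.18, -0.12 and -0.08. OBS30 and PFOS20 differ in compound and in concentration, and were not compared by a test.

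**Figure D4:**
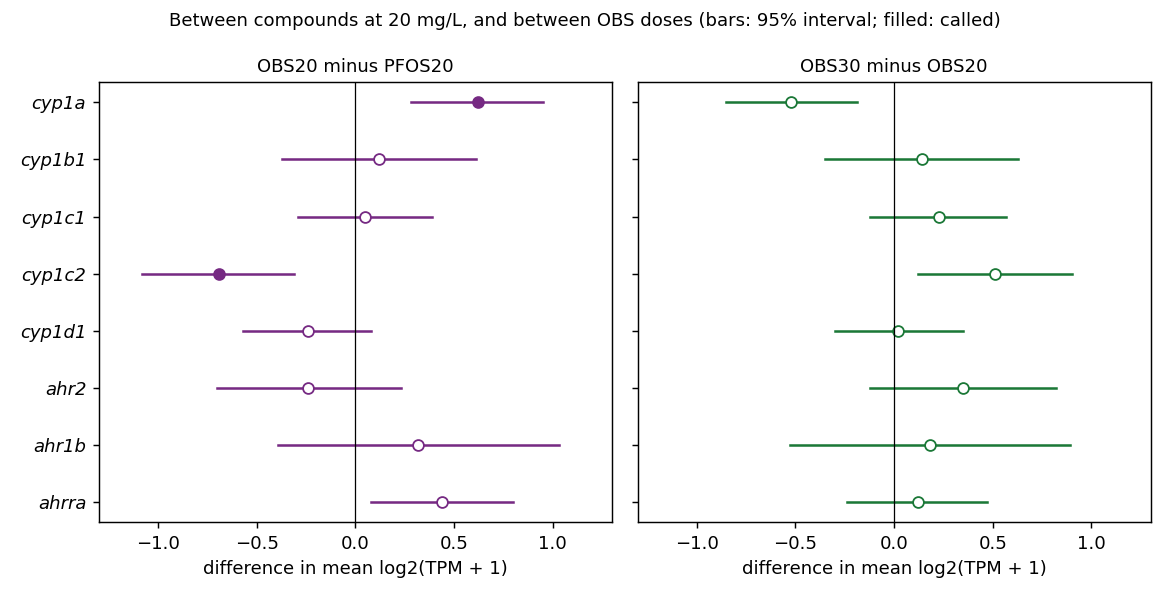
Differences in mean log2(TPM + 1) with 95% intervals are plotted for the 8 genes tested, OBS20 minus PFOS20 on the left and OBS30 minus OBS20 on the right; filled points were called. On the left cyp1a lies at 0.62 and cyp1c2 at -0.69, and on the right the same genes lie at -0.52 and 0.51 and are not called.

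Genes of the receptor complex and of electron supply to P450 enzymes were taken as a list of 17, of which 16 were found and passed the filter. The dimer partners arnt and arnt2 were not called in any contrast. arnt averaged 5.73 ± 2.09 TPM in OBS30, 4.12 ± 2.38 in OBS20 and 3.92 ± 0.794 in PFOS20, against 4.70 ± 0.223 in control (SD, n = 3 each). For arnt2 the means were 11.3, 9.52 and 6.60 TPM in OBS30, OBS20 and PFOS20, against 9.77 TPM in control, and the PFOS20 difference was -0.53 ± 0.26 (adjusted p = 0.19).

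The P450 reductase genes, which pass electrons to CYP1 enzymes, rose in part. pora rose in OBS30 by 0.62 ± 0.13 (adjusted p = 0.012), with 46.7 ± 4.43 TPM in OBS30 and 30.0 ± 1.3 TPM in control. porb rose by 0.49 ± 0.12 in OBS30 (adjusted p = 0.026) and by 0.49 ± 0.12 in PFOS20 (adjusted p = 0.017), with 99.1 ± 3.8 TPM in OBS30 and 98.7 ± 4.9 TPM in PFOS20, against 70.2 ± 6.59 TPM in control. Its OBS30 value was added after the values were seen. The cytochrome b5 gene cyb5a rose in OBS20 by 0.41 ± 0.09 (adjusted p = 0.046), and cyb5b rose in PFOS20 by 0.77 ± 0.19 (adjusted p = 0.020). Of the HSP90 genes, hsp90aa1.2 rose in OBS30 by 1.09 ± 0.09 against control and by 1.1 ± 0.09 against OBS20, with 43.1 ± 2.45 TPM in OBS30, 19.6 ± 1.27 in OBS20 and 19.8 ± 0.981 in control. hsp90aa1.1, the HSP90 gene of developing muscle, rose by 0.49 ± 0.14 in PFOS20 (adjusted p = 0.037) and fell by 0.57 ± 0.14 in OBS30 (adjusted p = 0.031). Its PFOS20 rise ranked below those of cyb5b and porb and lies outside the naming rule given below. The p23 co-chaperone gene ptges3b fell by 0.34 ± 0.10 in PFOS20 (adjusted p = 0.036).

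In all 3 of the 16 partner genes rose and 1 fell in OBS30, 1 rose and 0 fell in OBS20, and 4 rose and 1 fell in PFOS20. Over all genes tested 4.73% were called higher and 3.70% lower in OBS30, 0.681% and 0.805% in OBS20, and 6.35% and 11.9% in PFOS20. The list's median change was 0.17, -0.08 and -0.04, where that of all genes tested was 0.02, -0.08 and -0.13. Between OBS20 and PFOS20 5.85% of all genes were called higher and 3.92% lower. There 0 partner genes were higher and 2 lower, cyb5b (-1.04 ± 0.19, adjusted p = 0.0078) and hsp90aa1.1 (-0.88 ± 0.14, adjusted p = 0.0038). Between OBS30 and OBS20, where 1.11% of all genes were called higher and 0.466% lower, 1 was higher and 0 lower. These counts moved with single libraries. The 5 of PFOS20 against control became 0 to 3 without any one library of PFOS20, OBS30 or control, and the 4 of OBS30 became 1 or 2 without any one OBS30 library or without control replicate 3 or 4. The 1 of OBS20 became 0 without any one library other than OBS20 replicate 3, and the 2 between OBS20 and PFOS20 became 5 without OBS20 replicate 3.

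Genes outside the CYP1 family that are known as receptor targets in fish or mammals formed a second list of 24, of which 21 were found and 20 passed. tiparp, a poly(ADP-ribose) polymerase gene that feeds back on the receptor, averaged 16.6 ± 1.77 TPM in OBS30, 17.9 ± 1.35 in OBS20 and 13.0 ± 2.50 in PFOS20, against 8.67 ± 2.16 TPM in control (SD, n = 3 each). It rose by 0.89 ± 0.18 in OBS30 (adjusted p = 0.011) and by 0.99 ± 0.18 in OBS20 (adjusted p = 0.020), and the PFOS20 difference of 0.54 ± 0.18 was not called (adjusted p = 0.059). The difference between OBS20 and PFOS20 was 0.45 ± 0.18 and was not called (adjusted p = 0.15). nqo1, a quinone reductase gene that also answers to Nrf2, averaged 75.5 ± 7.29 TPM in OBS30, 66.9 ± 2.76 in OBS20 and 57.1 ± 5.57 in PFOS20, against 54.5 ± 0.946 TPM in control. It rose in OBS30 by 0.46 ± 0.10 (adjusted p = 0.015) and was not called in OBS20 (0.29 ± 0.10, adjusted p = 0.26) or PFOS20 (0.06 ± 0.10, adjusted p = 0.70).

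The widest rises in the list were those of glutathione transferase genes in OBS and of nfe2l2b and a prostaglandin synthase gene in PFOS. gstp2, which conjugates electrophiles, rose by 2.86 ± 0.18 in OBS30 and 1.82 ± 0.18 in OBS20, at 349 ± 10.6 and 169 ± 25.2 TPM, against 47.2 ± 4.91 TPM in control. In PFOS20 it averaged 127 ± 36.3 TPM and was also called higher, by 1.38 ± 0.18. gstp1 rose by 2.40 ± 0.07 in OBS30, 1.96 ± 0.07 in OBS20 and 0.55 ± 0.07 in PFOS20. It was 1.41 ± 0.07 higher in OBS20 than in PFOS20. nfe2l2b, an Nrf2 family gene, rose by 1.74 ± 0.34 in PFOS20, and ptgs2a, a prostaglandin synthase gene, by 1.60 ± 0.15. By limma nfe2l2b was not called in OBS30 (1.08 ± 0.34, adjusted p = 0.078) or OBS20 (0.99 ± 0.34, adjusted p = 0.26). Its difference between OBS20 and PFOS20, -0.75 ± 0.34, was not called either (adjusted p = 0.2). In OBS30 ptgs2a was also called higher than in control, by 1.28 ± 0.15. That value, the values of nfe2l2b that were not called and the PFOS20 changes of gstp2 and gstp1 were added after the values were seen. Both ptgs2a and ptgs2b were lower in OBS20 than in PFOS20, with differences of -1.49 ± 0.15 and -1.70 ± 0.24. Between OBS30 and OBS20 the largest rises were those of ptgs2a (1.17 ± 0.15) and gstp2 (1.05 ± 0.18). The forkhead gene foxq1b, a dioxin-responsive gene of the zebrafish jaw, had its highest mean in OBS20, as cyp1a did: it averaged 9.30 ± 0.277 TPM in OBS30, 14.3 ± 0.976 in OBS20 and 6.72 ± 0.601 in PFOS20, against 7.0 ± 0.568 TPM in control. It was higher in OBS20 than in PFOS20 (0.99 ± 0.11, adjusted p = 6.6e-04) and lower in OBS30 than in OBS20 (-0.57 ± 0.11, adjusted p = 0.034). The tryptophan-degrading ido1 fell in all exposures, to 0.443 ± 0.168 TPM in OBS30, 0.567 ± 0.484 in OBS20 and 1.89 ± 0.733 in PFOS20, against 4.64 ± 0.531 TPM in control.

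Of these 20 genes 9 rose and 1 fell in OBS30, 5 rose and 1 fell in OBS20, and 8 rose and 1 fell in PFOS20, where 4.73%, 0.681% and 6.35% of all genes tested were called higher and 3.70%, 0.805% and 11.9% lower. The list's median change was 0.53, 0.34 and 0.46 in that order, where that of all genes tested was 0.02, -0.08 and -0.13. Between OBS20 and PFOS20, where 5.85% of all genes tested were called higher and 3.92% lower, 3 were higher and 3 lower. Between OBS30 and OBS20, where 1.11% of all genes were called higher and 0.466% lower, 3 were higher and 1 lower. The last count was 2 without OBS20 replicate 1 or any one OBS30 library. The partner list and this list were chosen with earlier results of these data known. The contrasts against control share their control libraries, so the counts are not separate support. Several of the genes in this list are also known targets of Nrf2 or of inflammatory signals. The list was not divided by whether the receptor raises or lowers a gene, so a rise need not be the known response.

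**Figure D5:**
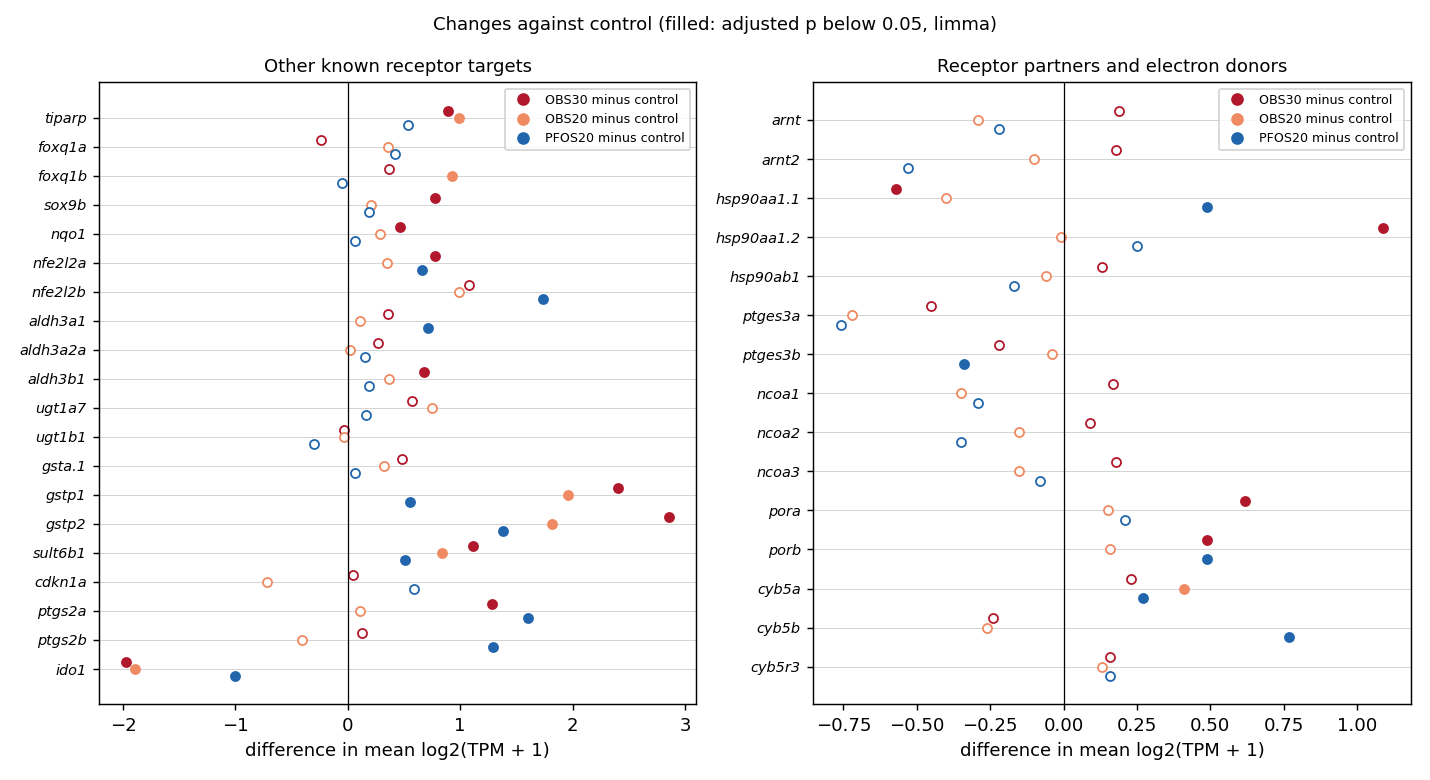
Differences from control in mean log2(TPM + 1) are plotted for the 20 other target genes (left) and partner and electron donor genes (right) in OBS30, OBS20 and PFOS20; filled points were called at an adjusted p below 0.05. On the left gstp2 in OBS30 lies farthest to the right at 2.86 and ido1 to the left of 0 in all 3 exposures; on the right arnt and arnt2 have open points only.

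The pattern of cyp1a over the 12 libraries was set against that of 11558 other genes with a mean of at least 5 TPM. Likeness was the root mean square difference between log2(TPM + 1) profiles, each centred on its own mean, and the profile of cyp1a itself had a root mean square of 0.53. The closest was abcc12, a gene of the ABC transporter family, at 0.20, with 12.2 TPM in OBS30, 13.1 in OBS20 and 9.62 in PFOS20, against 5.42 TPM in control. Next came the CYP3 monooxygenase gene cyp3a65 at 0.21, with 228, 262 and 187 TPM in OBS30, OBS20 and PFOS20, against 121 TPM in control. The others were si:ch211-113d11.6 at 0.22, the glucuronosyltransferase gene ugt2a1 at 0.25 and the enamelin gene enam at 0.25. The genes were chosen for this likeness, which is a description.

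The authors' annotation gives the 5 CYP1 genes the P450 domain of Pfam, and cyp1a and cyp1b1 the KEGG maps of xenobiotic and tryptophan metabolism. The 3 receptor genes and ahrrb carry helix-loop-helix and PAS domains, whereas the ahrra row, 1329 bases long, has no Pfam entry. cyp1c1 and cyp1c2 share a KEGG orthology entry and lie side by side with no other gene in between in the RefSeq table of the GRCz12tu assembly. Their sequences were not compared, so it is unknown whether reads that fit both were divided between them. ahr1b and ahr2 are near neighbours too, with 1 gene between them that codes for no protein. Within the first pair the cyp1c2 to cyp1c1 ratio was higher in OBS30 and in PFOS20 than in control, as given above. ahr2 and ahr1b had differences of opposite sign in each exposure against control. None of the ahr2 and ahr1b differences was called in the main fit, and the exposures share their control libraries. The signs were kept in OBS30 and PFOS20 in each alternative fit, and that of ahr2 in OBS20 turned without OBS20 replicate 2. Many of these fits could not turn a sign. Leaving out a library of a group not compared, fitting only the 6 libraries compared, or changing the filter leaves the difference itself unchanged.

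Tissues in which CYP1A is made include liver, gut and the vessel lining, and markers of these tissues moved in several groups. Of 12 hepatocyte markers 10 fell and 1 rose in OBS30, 7 fell and 0 rose in OBS20, and 7 fell and 1 rose in PFOS20. These and the marker counts that follow stand against 3.70%, 0.805% and 11.9% of all genes called lower in OBS30, OBS20 and PFOS20, and 4.73%, 0.681% and 6.35% called higher. Their summed level was 4480 to 5177 TPM in OBS30, 5614 to 5693 in OBS20 and 5687 to 5746 in PFOS20, against 6968 to 8214 TPM in control. Enterocyte markers summed to 382 to 465 TPM in OBS30, 543 to 742 in OBS20 and 848 to 983 in PFOS20, against 1233 to 1691 TPM in control, with 5, 3 and 2 of 8 lower. A sum leans on the most abundant markers. The median change of the enterocyte markers was -0.86 in OBS30, -0.59 in OBS20 and -0.10 in PFOS20. For the hepatocyte markers it was -1.11, -0.67 and -0.52, and for all genes tested 0.02, -0.08 and -0.13. The hepatocyte and enterocyte sums were below control in every exposed group, where cyp1a, cyp1c1 and cyp1c2 were above it. In PFOS20 the median of the enterocyte markers was near that of all genes. Between the OBS groups both sums were lower in OBS30 than in OBS20, and so was the mean of cyp1a. Against OBS20, PFOS20 had higher enterocyte sums and overlapping hepatocyte sums, while its mean of cyp1a was lower. Endothelial markers summed to 91.5 to 98.0 TPM in OBS30, 59.8 to 79.2 in OBS20 and 105 to 124 in PFOS20, against 67.6 to 72.5 TPM in control, and 1, 0 and 2 of 10 rose. Their median change was 0.08 in OBS30, -0.04 in OBS20 and 0.23 in PFOS20. No marker of these 3 lists was at 0 in a whole group, and their part in the CYP1 results was not tested. In PFOS20 7 of 8 neuron markers fell, with sums of 255 to 408 TPM in PFOS20, against 713 to 733 TPM in control, while 1 fell in OBS30 and 0 in OBS20. Of 6 epidermis markers 4 fell in OBS30, 0 in OBS20 and 5 in PFOS20.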

How the data were processed

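The files hold poly(A) RNA-seq of 12 libraries as TPM per gene, which the authors deposited with their group means, a length and annotation for 32520 Ensembl genes and 12147 assembled loci. The submitters' processing notes name HISAT2, StringTie, RSEM and GRCz11 without versions or roles. TPM keeps no read totals, so the depth is unknown and no counting interval is given. The deposited group means matched the libraries to 3.3e-05 TPM and were not tested. No coordinates or sequences are printed, and the GRCz12tu RefSeq table served only for which genes neighbour each other.

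From these values log2(TPM + 1) was fitted in limma 3.58.1 (R 4.3.3) with a term for group over all 12 libraries (8 residual degrees of freedom), eBayes with a mean-variance trend, two-sided, for 30674 genes with at least 1 TPM in 3 libraries. P-values were adjusted by Benjamini-Hochberg over all genes within a contrast. The fit was also run on simulated data in which each gene had the same spread in all groups. That run cannot show how a deviant library such as OBS20 replicate 3 affects the calls. Figures and ratios were made in Python 3.11.15. All members were named, with arnt, arnt2, tiparp and nqo1 and the 2 largest called changes per direction, list and contrast. The values of 1 partner gene that the rule names are not reported here, and partner genes outside the rule enter only the counts. The members, lists and tests were chosen with earlier results of these data known. Same-numbered libraries were not treated as pairs in the main fit. Of 13 correlations between their deviations from group means 1 exceeded 0.1, as did 4 of 41 between libraries with different numbers. The labels do not say whether they were paired, and these correlations do not settle it. Alternatives were quantile normalisation, scaling by the median of ratios, a pseudocount of 0.1, no filter on low values, a stricter filter (mean of 5 TPM or more), the replicate number as a block, the 6 libraries compared alone and each library left out.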

Additional observations from a re-analysis of the deposited data

How the results depend on the processing

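cyp1a kept its call against control in OBS30, OBS20 and PFOS20 in all 19 alternatives, with adjusted p of at most 0.028, 0.043 and 0.028, and cyp1c1 and cyp1c2 did so in OBS30 and PFOS20. No called change of a member turned its sign, and the sign changes, 8 under named settings and 14 without single libraries, concerned members not called. The members called higher in OBS20 against control were 1 with only the 6 libraries compared, in place of 3, and 2 to 3 without single libraries. In OBS20 against PFOS20 the counts of 1 higher and 1 lower became 0 and 0 with a replicate block and 0 and 0 with the 6 libraries, and ranged from 0 to 1 each without single libraries. Quantile normalisation called 1 member lower in OBS30 against OBS20, in place of 0.

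The replicate block left 2 partner genes called in PFOS20, 0 in OBS20 and 1 in OBS30 against control, in place of 5, 1 and 4, and 6 other target genes in OBS30 against control and 1 in OBS30 against OBS20, in place of 10 and 4. The labels do not say whether same-numbered libraries share anything besides the number. With the 6 libraries alone, 3 partner genes were called in PFOS20 and 0 in OBS20 against control and 0 in OBS20 against PFOS20, and 3 other target genes in OBS20 against control and 1 in OBS30 against OBS20. Median-of-ratios scaling called 0 partner genes in OBS20 against control. Quantile normalisation called 5 in OBS20 against PFOS20 and 2 in OBS30 against OBS20. Without single libraries the partner counts ranged from 0 to 6 in PFOS20, 0 to 1 in OBS20 and 1 to 4 in OBS30 against control, and from 2 to 5 in OBS20 against PFOS20. The other target counts ranged from 2 to 5 in OBS30 against OBS20. The cause was not tested.

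Of all calls in PFOS20 34.7% were higher, or 49.2% after median-of-ratios scaling. In OBS20 45.8% were higher, or 57.7% after quantile normalisation, and in OBS30 against OBS20 70.5%, or 56.0%. Over all genes 2584 were called in OBS30, 456 in OBS20 and 5610 in PFOS20 against control, 2996 between OBS20 and PFOS20 and 484 between OBS30 and OBS20. The replicate block gave 1150, 136, 3634, 1389 and 133 in that order. The 6 libraries alone gave 109 in OBS20, 576 between OBS20 and PFOS20 and 88 between OBS30 and OBS20. Quantile normalisation gave 3931 in OBS30, 5051 between OBS20 and PFOS20 and 803 between OBS30 and OBS20, and median-of-ratios scaling 4541 between OBS20 and PFOS20. Without single libraries the 5 counts ranged over 1488 to 3965, 230 to 505, 3090 to 8716, 1387 to 6491 and 140 to 427. A mean of at least 5 TPM left out cyp1b1. The unknown depth limits what can be said of ahr1a, ahrrb and cyp1b1.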
